A study of Arabidopsis thaliana with 6 samples.

Results

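The cold pathway was followed here through 10 Arabidopsis genes, chosen by locus identifier from the 32833 genes listed in the count files. They were the transcription factors CBF1 (AT4G25490), CBF2 (AT4G25470) and CBF3 (AT4G25480), the zinc finger factor ZAT12 (AT5G59820), and 6 cold-regulated targets, namely RD29A (AT5G52310), RD29B (AT5G52300), KIN1 (AT5G15960), KIN2 (AT5G15970), GOLS3 (AT1G09350) and COR413IM1 (AT1G29395). Their levels were compared between 6 RNA-seq libraries of 14-day-old seedlings, with 2 libraries for the wild type (Col-0) and 2 for each of the mutants *fio1-1* and *fio1-2*. FIO1 belongs to the METTL16 family of RNA methyltransferases. A splice-site change induced by EMS defines *fio1-1*. For *fio1-2* the lesion is read as the CRISPR deletion, which the study's text calls *fio1-5*. Here *fio1-2* is the label of the libraries. The study's text uses that name for another allele, a T-DNA insertion line with lowered FIO1 expression.

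All 3 groups had the same history per the labels, with 48 h of stratification at 4 °C as seeds, long days of 16 h light and no treatment. No group was exposed to cold as seedlings. The labels place the seedlings on soil with nights at 18 °C, whereas the methods describe agar plates and another night temperature. The hour of harvest is not given in the sources used here, and each library was made from pooled whole seedlings. The sources do not say whether the 2 libraries of a genotype were grown separately, so p-values measure the spread between these libraries only. Total counts ranged from 9717111 to 13055457 and genes with counts from 24123 to 24792. FIO1 itself had 8.94 to 11.1 reads per 1e+06 counted (CPM) in wild type, 8.24 to 8.54 in *fio1-1* and 6.97 to 8.65 in *fio1-2*. Its change did not pass the test in either mutant (log2 fold change -0.24, limma-voom adjusted p = 0.346, and -0.34, adjusted p = 0.146). Neither kind of lesion need change the count of its own gene, so this value does not check the labels.

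In the cold, CBF factors (also called DREB1) are transcribed within a short time of a temperature drop and bind the CCGAC core of the drought-responsive element in front of many cold-regulated genes. Those targets encode dehydrins, chloroplast membrane stabilisers and enzymes of protective sugar synthesis, which together allow cold acclimation. ZAT12 is induced in parallel with the CBF factors, and several of the targets also answer to abscisic acid through the ACGTG core of the abscisic acid response element. In seedlings kept warm, CBF transcripts are normally scarce and are gated by the circadian clock.

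Among the members, the only factor tested, ZAT12, moved against the well-covered targets. ZAT12 was lower in both mutants, and RD29A, RD29B, KIN1, KIN2 and COR413IM1 were higher in both, while the CBF factors were at or near the limit of detection everywhere and were scarcest in *fio1-1*. Of the 10 members, 7 passed the filter on low counts and entered the limma-voom fit. GOLS3 passed through its *fio1-2* libraries alone, so it is counted apart. Of the other 6, 5 were higher and 1 lower at an adjusted p under 0.05 in each mutant. By that rule, 14.2% of all 21268 genes tested passed upward and 14.3% downward in *fio1-1*. The shares in *fio1-2* were 16.4% upward and 16.1% downward. With a minimum of 1 on the absolute log2 scale added, 4 of the 6 were higher and 1 lower in *fio1-1*, where 2.92% of all genes were higher and 1.99% lower. By the same rule 5 of the 6 were higher and 1 lower in *fio1-2*, against 4.24% and 1.7% of all genes. The contrasts share their wild-type libraries and are not independent of each other. The share of all genes whose groups do not overlap is not given here, so each statement on overlap is a description only. The median log2 fold change over all genes was 0.01 in *fio1-1* and 0.00 in *fio1-2*.

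**Figure D1:**
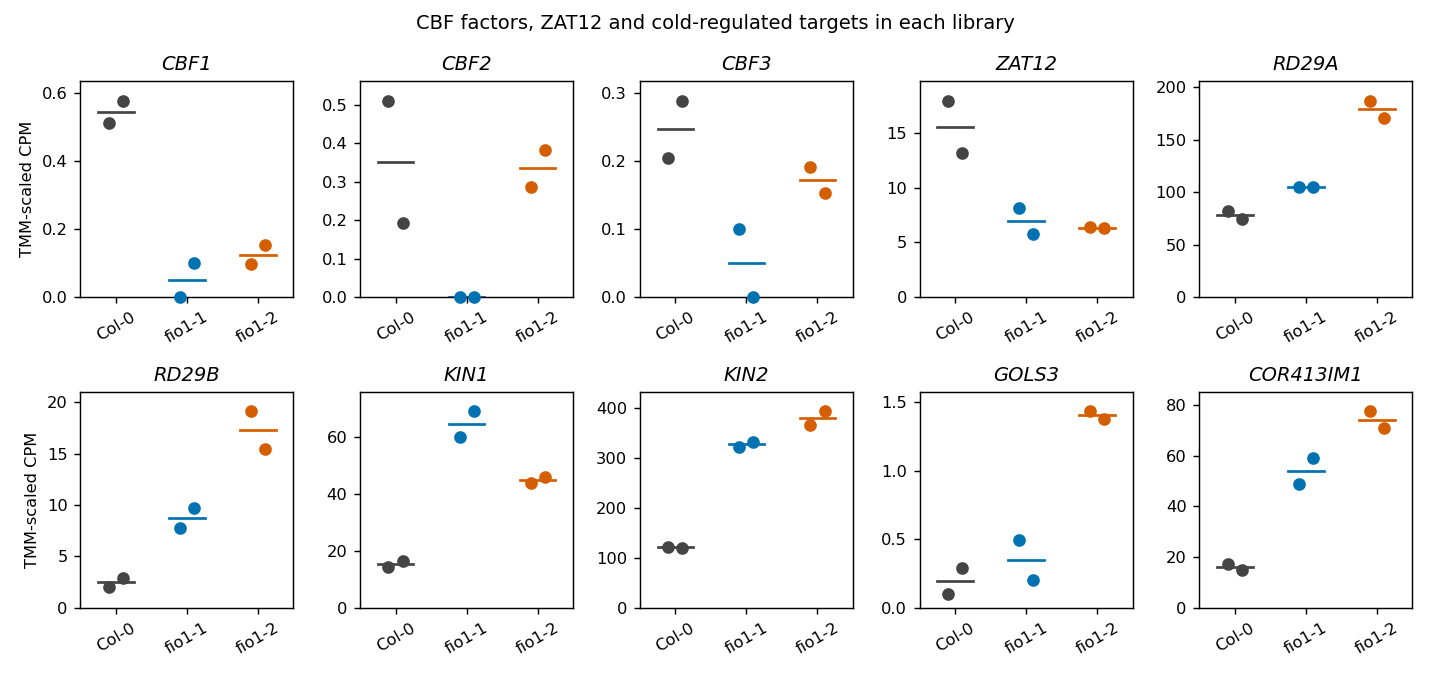
Level of each member in the 6 libraries, as CPM scaled with TMM factors, on a linear axis from 0. Points are libraries, short lines are the means of 2 libraries per genotype. ZAT12 is lower in all 4 mutant libraries than in both wild-type libraries, and the 5 abundant targets are higher in all 4. The share of all genes set apart in this way is not given here, so the separation is a description only.

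CBF1, CBF2 and CBF3 lie next to each other on the minus strand of chromosome 4, with no coding gene between them, 1774 bases apart for CBF2 and CBF3 and 2379 bases apart for CBF3 and CBF1. Their coding sequences are 85.0% to 86.7% identical, and CBF3 overlaps a non-coding gene, AT4G07385, on the opposite strand. The longest runs shared by pairs of their transcripts are 33 to 68 bases, shorter than the reads described in the study's methods. How many reads were split or dropped between the copies when counted was not measured. Strand use in counting is not given in the sources used here either, so single values of the 3 genes are uncertain.

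CBF1, the best detected of the 3 in wild type, had 5 and 6 reads in wild type, 0 and 1 in *fio1-1*, and 1 and 2 in *fio1-2*. Both wild-type libraries lay above all 4 mutant libraries. CBF2 had 5 and 2 reads in wild type, 0 in both *fio1-1* libraries, and 3 and 5 in *fio1-2*. Wild type and *fio1-2* overlapped, and *fio1-1* lay below both. CBF3 had 2 and 3 reads in wild type, 1 and 0 in *fio1-1*, and 2 in each *fio1-2* library. Here *fio1-1* lay below the others again, with 1 read in the whole group.

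Summed over the 3 factors, the libraries held 12 and 11 reads in wild type, 1 and 1 in *fio1-1*, and 6 and 9 in *fio1-2*, so the 3 genotypes did not overlap. The sum passed the filter on low counts only through the wild-type libraries, where it is high, so its fitted changes against wild type are given as a description with no test. They were -2.99 on the log2 scale in *fio1-1* (SE 0.784, n = 2 libraries each) and -0.81 in *fio1-2* (SE 0.539). The alleles differed by 2.18 with a limma-voom adjusted p of 0.0513. That value passed the threshold with library totals only (0.0493) and with no filter on low counts (0.0326), and over all alternatives it ranged from 0.0326 to 0.305. On reads alone, wild type held 23 and *fio1-1* 2, a ratio of 11.5 per unit of depth with a 95% exact interval of 2.84 to 100.4 that covers counting error only. Wild type against *fio1-2* gave 1.79, with an interval of 0.894 to 3.68. For CBF2, with 0 reads in *fio1-1*, wild type was at least 2.33-fold higher and *fio1-2* at least 2.28-fold higher against a floor of 3 reads over the group, which leaves out the counting error of the 7 and 8 reads above it. With that error counted, the exact 95% lower limits of the ratios were 1.44 and 1.46.

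ZAT12, a C2H2 zinc finger repressor induced by cold, wounding and oxidative stress, was the member that fell. It had 18.0 and 13.2 CPM in Col-0, 8.14 and 5.76 in *fio1-1*, and 6.40 and 6.28 in *fio1-2*. Both mutants lay below wild type without overlap. In *fio1-1* the log2 fold change of ZAT12 was -1.16 (SE 0.187, limma-voom adjusted p = 7.7e-07). In *fio1-2* it was -1.27 (SE 0.182, limma-voom adjusted p = 3.2e-08), a 2.41-fold lower level. The alleles themselves gave a difference of -0.11 with a 95% interval from -0.55 to 0.32 (limma-voom adjusted p = 0.788). The value in *fio1-1* went under the fold minimum, at -0.94, without wild type replicate 1 and, at -0.91, without *fio1-1* replicate 2. In bulk seedlings, fewer cells of a type and less RNA per cell cannot be told apart.

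**Figure D2:**
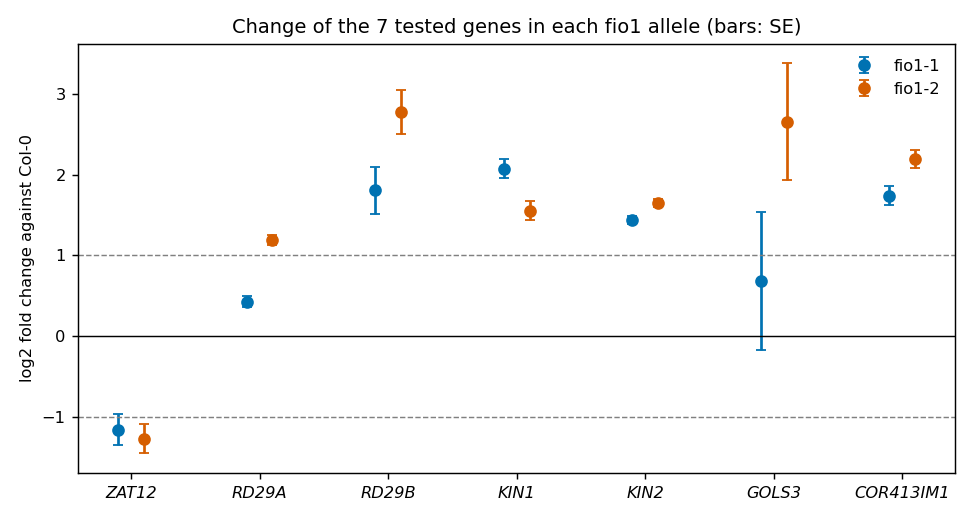
Log2 fold change against Col-0 of the 7 tested members in *fio1-1* (blue) and *fio1-2* (orange), with bars of 1 SE from the limma-voom fit and dashed lines at the fold minimum. ZAT12 lies below -1 in both alleles, RD29A is at 0.43 and 1.19, and KIN1 is the target with the higher value in *fio1-1*.

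The targets differ in gene layout and in the sequence before their annotated starts. RD29B and RD29A stand in tandem on chromosome 5, 1185 bases apart, with coding sequences 56.6% identical. KIN1 and KIN2 stand in tandem on chromosome 5, 892 bases apart, and their coding sequences are 95.0% identical with a longest shared transcript run of 58 bases. COR413IM1 lies on chromosome 1 beside its paralogue COR413IM2, 25 bases away and 69.6% identical. The 300 bases before the annotated start are shown for these 5 genes, since they are the targets whose changes carry the result and since neighbouring copies can be set side by side. They come from the RefSeq TAIR10.1 genome at chr5:21236721-21237020 (plus strand), chr5:21240417-21240716 (plus), chr5:5209417-5209716 (plus), chr5:5211419-5211718 (plus) and chr1:10289667-10289966 (minus), written 5′ to 3′ along the gene. Capitals mark CCGAC and ACGTG on either strand, the latter read as CACGT where it lies on the opposite strand.
RD29B: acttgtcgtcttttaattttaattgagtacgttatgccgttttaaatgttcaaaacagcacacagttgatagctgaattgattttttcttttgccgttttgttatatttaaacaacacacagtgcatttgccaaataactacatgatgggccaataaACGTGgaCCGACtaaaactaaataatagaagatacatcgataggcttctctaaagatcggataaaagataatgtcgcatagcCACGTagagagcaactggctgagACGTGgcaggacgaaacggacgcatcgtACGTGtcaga
RD29A: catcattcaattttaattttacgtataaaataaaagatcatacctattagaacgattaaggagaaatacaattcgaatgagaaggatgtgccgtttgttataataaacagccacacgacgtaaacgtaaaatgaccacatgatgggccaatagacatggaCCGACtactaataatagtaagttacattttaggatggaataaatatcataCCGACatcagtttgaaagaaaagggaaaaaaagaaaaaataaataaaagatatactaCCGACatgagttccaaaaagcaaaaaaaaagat
KIN1: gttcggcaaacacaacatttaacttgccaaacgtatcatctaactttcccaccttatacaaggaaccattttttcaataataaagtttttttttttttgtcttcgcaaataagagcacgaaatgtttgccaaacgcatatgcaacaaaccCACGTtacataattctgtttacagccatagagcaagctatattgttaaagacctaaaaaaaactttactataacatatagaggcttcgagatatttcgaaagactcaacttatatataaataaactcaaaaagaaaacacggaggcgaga
KIN2: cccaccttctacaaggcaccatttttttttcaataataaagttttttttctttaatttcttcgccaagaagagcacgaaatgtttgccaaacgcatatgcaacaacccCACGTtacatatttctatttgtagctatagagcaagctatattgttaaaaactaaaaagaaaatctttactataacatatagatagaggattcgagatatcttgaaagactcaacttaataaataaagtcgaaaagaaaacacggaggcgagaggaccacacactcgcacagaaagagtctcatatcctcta
COR413IM1: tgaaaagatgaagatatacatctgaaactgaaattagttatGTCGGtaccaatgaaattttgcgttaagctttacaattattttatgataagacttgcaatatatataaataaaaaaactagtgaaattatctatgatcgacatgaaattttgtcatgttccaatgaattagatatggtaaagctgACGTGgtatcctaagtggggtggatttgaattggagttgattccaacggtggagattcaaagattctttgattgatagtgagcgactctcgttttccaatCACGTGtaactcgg

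RD29A held 3 copies of CCGAC and no ACGTG in this window, whereas RD29B held 1 CCGAC and 4 ACGTG. COR413IM1 held 1 CCGAC and 3 ACGTG, where a palindromic CACGTG counts once on each strand. KIN1 and KIN2 held 1 ACGTG each and no CCGAC, within a stretch that the copies largely share. Over all 10 members, CCGAC was present in 4 windows and ACGTG in 7. Among 27443 gene windows of this length, 13.9% held CCGAC and 25.6% held ACGTG. The palindrome CACGTG was present in 3 of 10, namely CBF2, GOLS3 and COR413IM1, against 7.09% of all windows. AAATATCT, the core of the clock-related evening element, was present in 5 of 10, namely CBF1, CBF2, CBF3, ZAT12 and KIN1, against 5.64% of all windows. Matches describe letters in this window and were not read as bound sites. Bases after the annotated start were not searched, so a motif absent here may lie outside the window.

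**Figure D3:**
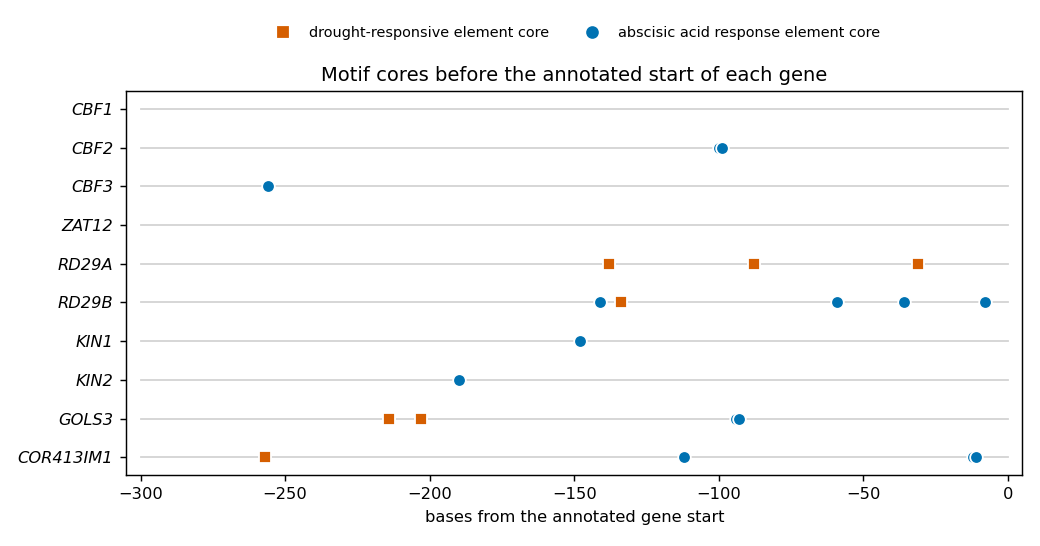
Positions of CCGAC (orange squares, drought-responsive element core) and ACGTG (blue circles, abscisic acid response element core) on either strand in the 300 bases before the annotated start of each member; the x axis gives bases from the start. RD29A has 3 squares, RD29B 1 square and 4 circles, and CBF1 and ZAT12 have neither.

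Per kb of exon, the order of the members changed between genotypes. In wild type KIN2 stood first at 161 ± 2.43 CPM per kb (SD, n = 2), followed by RD29A at 29.4 ± 2.16. KIN1 (18.4 ± 1.83), ZAT12 (15.9 ± 3.47) and COR413IM1 (15.8 ± 1.57) followed, with differences within their spread. RD29B was at 1.14 ± 0.274, and GOLS3 and the CBF factors were under 1 in every group. In *fio1-1*, KIN1 at 78.0 ± 7.65 and COR413IM1 at 52.9 ± 7.17 stood above RD29A at 39.5 ± 0.0674. In *fio1-2*, COR413IM1 at 72.7 ± 4.58 and RD29A at 67.3 ± 4.30 were within their spread of each other and above KIN1 at 54.2 ± 1.77. KIN2 kept the first place in both mutants, at 436 ± 9.96 and 505 ± 25.8 CPM per kb.

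KIN2 (also called COR6.6) and KIN1 encode small, closely related hydrophilic proteins that accumulate in the cold. KIN2 had 122 and 119 CPM in Col-0, 321 and 332 in *fio1-1*, and 365 and 392 in *fio1-2*. All mutant libraries lay above wild type, and both *fio1-2* libraries lay above both *fio1-1* libraries. KIN2 was 2.70-fold higher in *fio1-1* (log2 1.44, SE 0.0506, limma-voom adjusted p = 1.7e-35) and 3.14-fold higher in *fio1-2* (log2 1.65, SE 0.0491, adjusted p = 6.9e-40).

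KIN1 had 14.2 and 16.4 CPM in Col-0, 60.2 and 69.1 in *fio1-1*, and 43.9 and 45.9 in *fio1-2*. All 3 groups stood apart, and here *fio1-1* was the highest. KIN1 was 4.21-fold higher in *fio1-1* (log2 2.07, SE 0.115, limma-voom adjusted p = 6.4e-25) and 2.94-fold higher in *fio1-2* (log2 1.55, SE 0.117, adjusted p = 2.2e-18). Between the alleles, KIN1 was lower in *fio1-2* by a log2 fold change of -0.52 while its neighbour KIN2 was higher by 0.22, both past the limma-voom adjusted p (2.0e-07 and 1.6e-05). Put as a share of the reads of both genes, KIN1 took 10.4% and 12.0% in wild type, 15.8% and 17.2% in *fio1-1*, and 10.7% and 10.5% in *fio1-2*. Thus the share stood apart in *fio1-1* and overlapped between wild type and *fio1-2*. The longest run shared by the transcripts of these copies, 58 bases, is shorter than the reads described in the study's methods. Exchange of reads between the copies was not measured, so their sum was fitted too. The sum was higher in *fio1-1* by 1.52 and in *fio1-2* by 1.64 on the log2 scale (limma-voom adjusted p = 6.9e-38 and 2.2e-40).

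RD29A (also called LTI78 and COR78), a hydrophilic protein long used as a marker of cold and drought responses, had 82.4 and 74.3 CPM in Col-0, 105.2 and 105.0 in *fio1-1*, and 187 and 171 in *fio1-2*. Levels stepped up from wild type over *fio1-1* to *fio1-2* without overlap. The change in *fio1-1* was 1.35-fold (log2 0.43, SE 0.0658, limma-voom adjusted p = 2.3e-07), under the fold minimum. In *fio1-2* it was 2.28-fold (log2 1.19, SE 0.0599, limma-voom adjusted p = 4.9e-27).

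RD29B (LTI65), its neighbour, known for a stronger response to abscisic acid than to cold, had 2.04 and 2.89 CPM in Col-0, 7.74 and 9.73 in *fio1-1*, and 19.1 and 15.5 in *fio1-2*. Its order of the groups was that of RD29A, again without overlap, with larger folds. RD29B was 3.50-fold higher in *fio1-1* (log2 1.81, SE 0.292, limma-voom adjusted p = 7.1e-07) and 6.84-fold higher in *fio1-2* (log2 2.77, SE 0.273, adjusted p = 1.8e-13). Reads of RD29B were 2.48% and 3.89% of those of RD29A in wild type, 7.36% and 9.27% in *fio1-1*, and 10.2% and 9.04% in *fio1-2*. This ratio was higher in all 4 mutant libraries than in wild type, and the alleles overlapped.

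COR413IM1, a chloroplast inner envelope protein of the COR413 family, had 17.3 and 15.0 CPM in Col-0, 48.8 and 59.2 in *fio1-1*, and 77.6 and 71.0 in *fio1-2*. These groups did not overlap. It was 3.34-fold higher in *fio1-1* (log2 1.74, SE 0.118, limma-voom adjusted p = 1.6e-20) and 4.59-fold higher in *fio1-2* (log2 2.20, SE 0.113, adjusted p = 1.4e-26). Its adjacent paralogue COR413IM2, chosen for mention after its values were seen, had log2 fold changes of 0.27 and 0.19 (limma-voom adjusted p = 0.0126 and 0.0737).

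GOLS3, a galactinol synthase that starts the raffinose pathway and is a CBF target, had 1 and 3 reads in wild type, 5 and 2 in *fio1-1*, and 15 and 18 in *fio1-2*. Wild type and *fio1-1* overlapped, and *fio1-2* lay above both. Reads per unit of depth were 7.08 times as many in *fio1-2* as in wild type (95% exact interval 2.52 to 27.5, counting error only) and 4.04 times as many as in *fio1-1* (1.76 to 10.8). Since GOLS3 entered the fit only through the *fio1-2* libraries, its fitted log2 fold change there, 2.66 (SE 0.720), is a description with no test. The value in *fio1-1* was 0.69 (SE 0.857, limma-voom adjusted p = 0.601), with a 95% interval from -1.03 to 2.40.

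Set directly against each other, the alleles differed in 5 of the 6 well-covered tested members. RD29A, RD29B, KIN2 and COR413IM1 were higher in *fio1-2* and KIN1 was lower, at an adjusted p under 0.05, where 9.31% of all genes were higher and 8.76% lower. The largest of these differences was that of RD29B, 1.95-fold (log2 0.96, SE 0.163, limma-voom adjusted p = 3.0e-06), followed by RD29A, 1.70-fold (log2 0.76, SE 0.0557, adjusted p = 1.6e-18). COR413IM1 differed by 0.46 on the log2 scale (SE 0.0758, limma-voom adjusted p = 2.0e-06). None of the 5 reached the fold minimum, which 2.13% of all genes passed upward and 0.545% downward, except RD29B at 1.13 when either *fio1-1* replicate 2 or *fio1-2* replicate 2 was left out.

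Markers of maturing seed, taken as a sum, were higher in both mutants. Of 12 such genes, 10 passed the adjusted p upward in *fio1-1* and 12 in *fio1-2*, against 14.2% and 16.4% of all genes. Each had 0 to 9 reads in a wild-type library and entered the fit only through mutant libraries, so these counts are a description. Their summed level was 1.74 to 2.12 CPM in Col-0, 44.4 to 46.0 in *fio1-1*, and 8748 to 9062 in *fio1-2*. Of these, the storage protein genes CRU3, SESA1 and SESA2 and the late embryogenesis gene EM1 were at 0 in both wild-type libraries, and EM1 was at 0 in both *fio1-1* libraries as well. KIN2 stood at 321 and 332 CPM in *fio1-1* and at 365 and 392 in *fio1-2*, and KIN1 was highest in *fio1-1*. Summed over the 6 targets, the level was 228 to 238 CPM in Col-0, 544 to 575 in *fio1-1*, and 694 to 697 in *fio1-2*. RD29A, RD29B, KIN2 and COR413IM1 had the same order of genotypes as the seed genes, without overlap. The share of all genes with that order is not given here, so the shared order is a description only. GOLS3 had that order in its group means, with wild type and *fio1-1* overlapping, and KIN1 did not have it. The part of seed RNA in the levels of the targets, and in those of the other cold and abscisic acid genes described next, was not tested. In the fit without the *fio1-2* libraries, the same 5 members were called in *fio1-1*, 4 higher and 1 lower. The *fio1-1* libraries also held more seed transcripts than wild type, so that fit does not bear on the part of seed RNA.

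**Figure D4:**
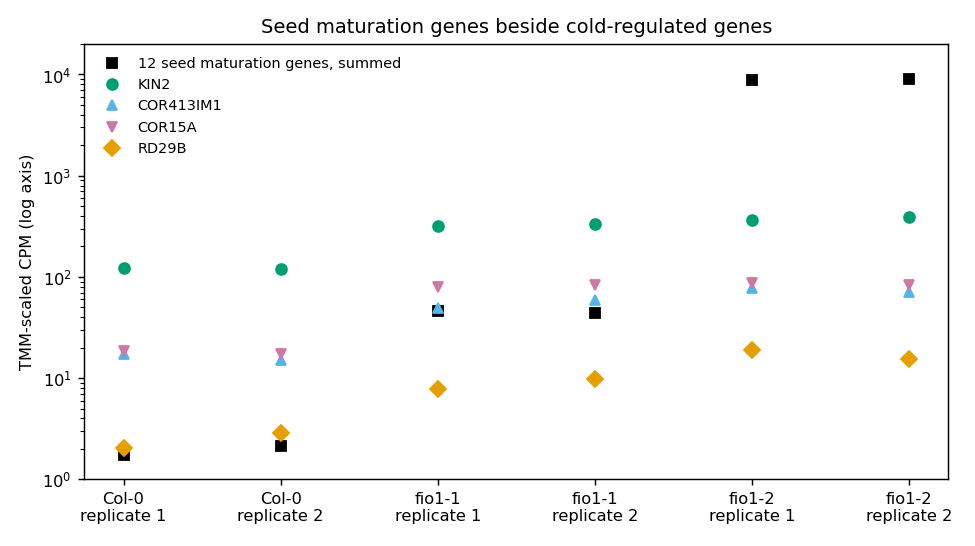
Summed CPM of 12 seed maturation genes (black squares) beside CPM of KIN2, COR413IM1, COR15A and RD29B in each library, on a log axis. The seed genes go from 1.74 to 2.12 CPM in wild type to 44.4 to 46.0 in *fio1-1* and 8748 to 9062 in *fio1-2*. KIN2, COR413IM1 and RD29B are higher in both *fio1-2* libraries than in both *fio1-1* libraries, and COR15A lies close between the mutants.

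Of 22 other cold-regulated effector genes, in *fio1-1* 9 passed the adjusted p upward and 5 downward, and in *fio1-2* 11 passed upward and 4 downward. As above, 14.2% and 14.3% of all genes passed upward and downward in *fio1-1*, and 16.4% and 16.1% in *fio1-2*. The median log2 fold change of the list was 0.08 in *fio1-1* and 0.23 in *fio1-2*, beside 0.01 and 0.00 over all genes, so the larger changes sat in a few genes. COR15A, which encodes a chloroplast stroma protein that protects membranes on freezing, had 183 and 182 reads in wild type, 803 and 839 in *fio1-1*, and 922 and 1093 in *fio1-2*. It was 4.50-fold higher in *fio1-1* and 4.73-fold higher in *fio1-2* (log2 2.17 and 2.24, limma-voom adjusted p = 1.6e-28 and 1.1e-29). Its tandem copy COR15B was 2.38-fold and 2.29-fold higher (limma-voom adjusted p = 1.1e-23 and 5.5e-23). Neither differed between the alleles past the threshold, with log2 differences of 0.07 and -0.06 (limma-voom adjusted p = 0.498 and 0.564). GOLS2, another galactinol synthase gene, had 0 and 5 reads in wild type, 7 and 16 in *fio1-1*, and 43 and 23 in *fio1-2*. It is included in the counts above but entered the fit only through the *fio1-2* libraries, so its fitted log2 fold changes, 2.75 and 3.99, are a description with no test.

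Genes on the effector list that were called lower were so in *fio1-1*. BAM3, a chloroplast beta-amylase that degrades starch in the cold, had 1754 and 1970 reads in wild type, 585 and 572 in *fio1-1*, and 1087 and 1440 in *fio1-2*. It was 3.21-fold lower in *fio1-1* (log2 -1.68, limma-voom adjusted p = 1.8e-33) and 1.72-fold lower in *fio1-2* (log2 -0.78, adjusted p = 1.8e-20), and the alleles differed by 0.90 (adjusted p = 4.7e-18). COR28 (AT4G33980) was 2.71-fold lower in *fio1-1* (log2 -1.44, limma-voom adjusted p = 1.6e-21). It was at -0.33 in *fio1-2* (limma-voom adjusted p = 0.000157), and the alleles differed by 1.11 (adjusted p = 9.8e-16). The other genes on that list, among them the abundant dehydrin genes, had log2 fold changes under 1 in size in both mutants.

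The transcription factors of the first wave, which are induced in parallel with the CBF factors, were mostly lower in the mutants, as ZAT12 was. Of 9 tested, 7 passed downward and 1 upward in *fio1-1*, against 6 downward and 3 upward in *fio1-2*. Of all genes, 14.3% passed downward and 14.2% upward in *fio1-1*, and 16.1% and 16.4% in *fio1-2*. The list had a median log2 fold change of -1.34 and -0.53. Their summed level was 436 to 454 CPM in Col-0, 239 to 241 in *fio1-1*, and 314 to 337 in *fio1-2*. ZAT10, a zinc finger factor of the ZAT12 family, had 199 and 231 reads in wild type, 52 and 45 in *fio1-1*, and 93 and 102 in *fio1-2*. It was 4.40-fold lower in *fio1-1* and 2.57-fold lower in *fio1-2* (limma-voom adjusted p = 1.4e-14 and 1.2e-11). ZAT6, of the same family, was 4.09-fold and 4.90-fold lower (limma-voom adjusted p = 1.6e-16 and 1.4e-18). ERF5, an ethylene response factor, was 4.60-fold and 3.26-fold lower (adjusted p = 3.3e-12 and 2.0e-11), and the CCCH zinc finger gene CZF1 was 2.53-fold and 2.30-fold lower (adjusted p = 9.0e-22 and 3.8e-21), all from limma-voom. RAV1 was 2.55-fold lower in *fio1-1* and 1.44-fold lower in *fio1-2* (limma-voom adjusted p = 1.5e-27 and 2.3e-12), a difference of 0.82 between the alleles (adjusted p = 4.6e-16).

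Genes that respond to touch and wounding moved with these factors in part. Of 8 such markers, 3 passed downward and 2 upward in *fio1-1*, against 4 downward and 1 upward in *fio1-2*. Among all genes the shares were 14.3% downward and 14.2% upward in *fio1-1*, and 16.1% and 16.4% in *fio1-2*. WRKY40 and WRKY33, stress-induced WRKY factors, were 4.01-fold and 3.65-fold lower in *fio1-1* and 3.83-fold and 2.16-fold lower in *fio1-2*. TCH4, a touch-induced cell wall enzyme, was 3.44-fold higher in *fio1-1* and 1.94-fold higher in *fio1-2*. The summed level of the 8 was 528 to 532 CPM in Col-0, 634 to 653 in *fio1-1*, and 451 to 458 in *fio1-2*, and none of the 8 was at 0 in any library. How far handling at harvest entered the level of ZAT12 was not tested.

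Of 13 regulators upstream of the CBF factors, among them ICE1, SCRM2, the CAMTA calcium-responsive activators and the kinase OST1, 1 passed upward and 1 downward in *fio1-1*, against 4 upward and none downward in *fio1-2*, with medians of -0.00 and 0.12 on the log2 scale. Over all genes, 14.2% passed upward and 14.3% downward in *fio1-1*, and 16.4% and 16.1% in *fio1-2*. MYB15, a repressor of CBF transcription, had 2 and 5 reads in wild type, 6 and 5 in *fio1-1*, and 12 and 14 in *fio1-2*. It is 1 of the 4, but it entered the fit only through the *fio1-2* libraries, so its fitted log2 fold change of 1.63 is a description with no test. Of the other DREB and CBF relatives, 6 were in the files and 4 were tested, of which none passed in *fio1-1* and 2 were lower in *fio1-2*, with log2 fold changes of -0.81 for DREB2A and -0.68 for RAP2.1.

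**Figure D5:**
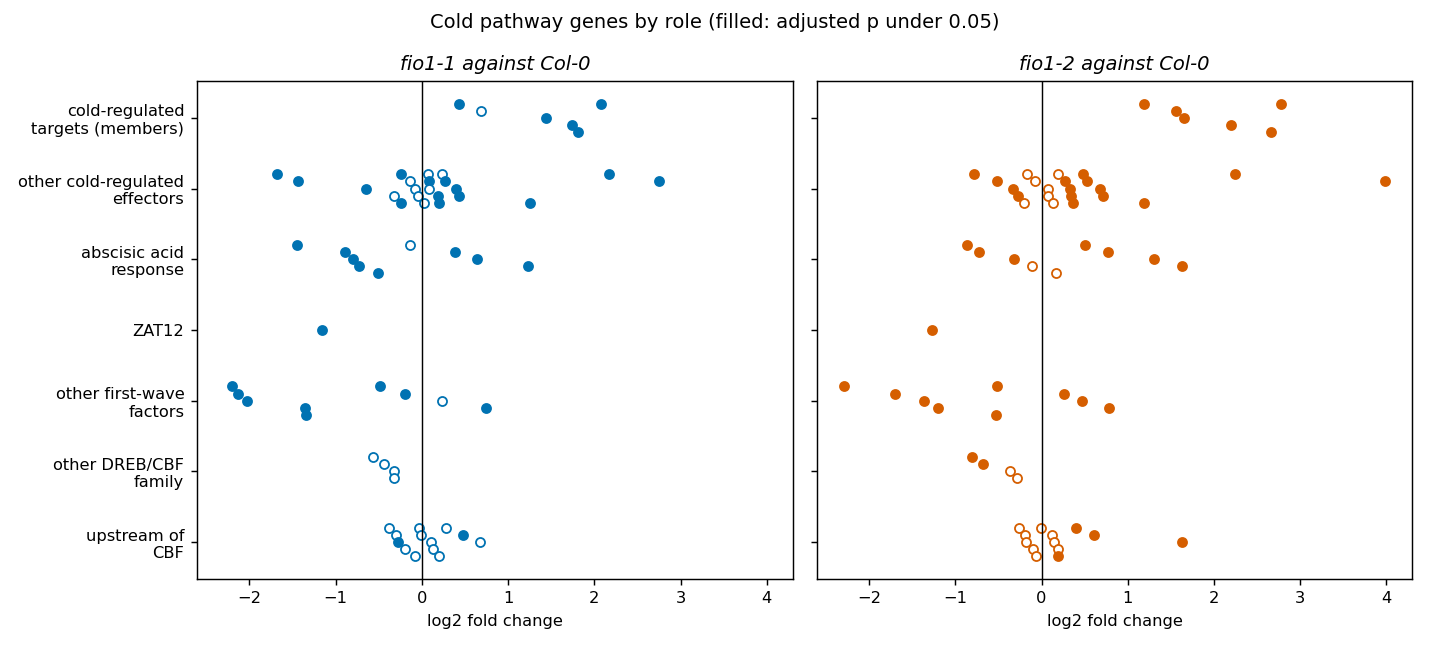
Log2 fold change against Col-0 of every tested gene of the cold pathway, by role, in *fio1-1* (left) and *fio1-2* (right); filled points passed the adjusted p, open points did not. The targets among the members lie to the right of 0, most first-wave factors lie to the left, and the regulators upstream of CBF sit around 0 with MYB15 at 1.63 in *fio1-2*.

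Abscisic acid response genes did not move one way. Of 9, 3 passed upward and 5 downward in *fio1-1*, against 4 upward and 3 downward in *fio1-2*, with medians of -0.51 and 0.17 on the log2 scale. The shares of all genes were 14.2% upward and 14.3% downward in *fio1-1*, and 16.4% and 16.1% in *fio1-2*. RAB18, a dehydrin gene and marker of abscisic acid, was 2.34-fold higher in *fio1-1* and 3.10-fold higher in *fio1-2* (limma-voom adjusted p = 3.1e-17 and 3.6e-24). RD26, a NAC factor of the same response, was 2.72-fold lower in *fio1-1* and 1.82-fold lower in *fio1-2* (adjusted p = 2.4e-16 and 8.9e-11, limma-voom). NCED3, the rate-limiting enzyme of abscisic acid synthesis under drought, had 19 and 10 reads in wild type, 19 and 8 in *fio1-1*, and 30 and 52 in *fio1-2*. It was called higher in *fio1-2* (log2 1.31, limma-voom adjusted p = 0.00698), a call lost with DESeq2 (adjusted p = 0.113) and without *fio1-2* replicate 2 (1.05, limma-voom adjusted p = 0.111) or wild type replicate 2 (0.80, adjusted p = 0.234).

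Among 8 light and clock regulators that also act on the cold pathway, 4 passed upward and 1 downward in *fio1-1*, against 5 upward and none downward in *fio1-2*. For all genes the shares were 14.2% upward and 14.3% downward in *fio1-1*, and 16.4% and 16.1% in *fio1-2*. PIF4, a phytochrome-interacting factor that represses CBF genes in long days, was 2.48-fold higher in *fio1-1* and 4.45-fold higher in *fio1-2* (limma-voom adjusted p = 2.3e-17 and 8.0e-30), and PIF5 was 1.53-fold and 2.12-fold higher. LHY, a morning clock factor that binds CBF promoters, had 13 and 5 reads in wild type, 34 and 38 in *fio1-1*, and 49 and 42 in *fio1-2*. It is included in the counts above but entered the fit only through mutant libraries. Its fitted changes, 4.29-fold and 4.55-fold higher, are therefore a description with no test. In *fio1-1* the log2 fold change of LHY was 1.39 without wild type replicate 2. Its partner CCA1, named after its values were seen, had log2 fold changes of 0.21 and 0.18 that did not pass. PRR5, an evening-side repressor of CBF genes, was 2.06-fold lower in *fio1-1* (log2 -1.04, limma-voom adjusted p = 3.1e-12; -0.86 without *fio1-1* replicate 1) and 1.33-fold higher in *fio1-2* (adjusted p = 4.9e-05). The hour of harvest of each genotype is not known, so genotype and time of day cannot be told apart in these genes.

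Green leaf markers and root markers, which define the tissues of a seedling, were present in all libraries. The 4 leaf genes summed to 37244 to 37318 CPM in Col-0, 45266 to 47980 in *fio1-1*, and 40635 to 40749 in *fio1-2*. The 4 root genes summed to 1787 to 1812, 1845 to 1891 and 2420 to 2467 CPM in the same order. These sums do not stand for each gene. Of the root genes, 1 passed the adjusted p upward and 2 downward in *fio1-1*, and 3 upward and 1 downward in *fio1-2*. Of the leaf genes, 4 passed upward in *fio1-1*, and 3 upward and 1 downward in *fio1-2*. All genes gave 14.2% upward and 14.3% downward in *fio1-1*, and 16.4% and 16.1% in *fio1-2*.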

How the data were processed

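RNA was sequenced from 14-day-old seedlings of Col-0, *fio1-1* and *fio1-2*, with 2 libraries each. Raw counts of reads per gene, as deposited, were the values analysed. Per the study's methods and the submitters' processing notes, the authors trimmed reads with Trim Galore 0.6.3, aligned them to TAIR10 with HISAT2 2.1.0 and counted them with HTSeq 0.9.1. The tables of the authors' own limma 3.38.3 comparisons (fold changes, p-values and log odds) were not used.

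All 6 libraries entered one limma-voom fit (limma 3.58.1, edgeR 4.0.16, R 4.3.3) with TMM factors, filterByExpr and a mean per genotype. This kept 21268 of the 26601 genes with a count. P-values were adjusted by Benjamini-Hochberg over all genes tested, and a gene was called at an adjusted p under 0.05 with an absolute log2 fold change of at least 1. Levels are TMM-scaled CPM. Exact Poisson intervals and a floor of 3 reads over a group cover counting error only, since reads carry no molecular identifiers. No pair of replicates agreed within sampling noise (mean chi-square 1.48 to 1.99 per gene). Fits were tested on simulated counts. Gene models and sequences were taken from RefSeq (TAIR10.1).

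The members, gene lists and tests were chosen with earlier results of these data known. The named genes are the 10 members, FIO1, and up to 6 called genes of each other list, by size of change. DREB2A, RAP2.1, ICE1, SCRM2, OST1, COR413IM2, CCA1 and EM1 were named outside that rule, after their values were seen. AT1G63040, a DREB relative on 1 list, was not analysed here. Other scalings, filters and tools (DESeq2 1.42.0, edgeR's quasi-likelihood test), a replicate block, summed copies and each library left out were tried as alternatives.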

Additional observations from a re-analysis of the deposited data

Results flagged for a closer look

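The alleles differed for 5 members by the limma-voom test of *fio1-2* against *fio1-1* itself. Of all genes, 9.31% were higher and 8.76% lower at an adjusted p under 0.05 in that contrast. On the log2 scale, *fio1-2* was higher by 0.96 for RD29B (adjusted p = 3.0e-06), 0.76 for RD29A (adjusted p = 1.6e-18), 0.46 for COR413IM1 (adjusted p = 2.0e-06) and 0.22 for KIN2 (adjusted p = 1.6e-05), and it was lower, at -0.52, for KIN1 (adjusted p = 2.0e-07). The fitted difference of GOLS3 was 1.97, a description only, since the gene entered the fit through its *fio1-2* libraries alone. The summed level of the 12 seed maturation genes was 8748 to 9062 CPM in *fio1-2* and 44.4 to 46.0 in *fio1-1*, and its part in these differences was not tested.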

How the results depend on the processing

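The count of called members was 5 in *fio1-1*, 7 in *fio1-2* and 1 between the alleles, or 5, 6 and 0 without GOLS3. Over all genes 2.92% were called higher and 1.99% lower, 4.24% and 1.7%, and 2.13% and 0.545%. Across all alternatives it was 4 to 7 in *fio1-1* and 6 to 7 in *fio1-2*. Leaving out 1 library gave 4 to 5 in *fio1-1*, 6 to 7 in *fio1-2* and 0 to 1 between the alleles, where the 1 was RD29B and not GOLS3 without *fio1-1* replicate 2 or *fio1-2* replicate 2. Between the alleles the count was 0 with DESeq2, 0 with a mean of at least 1 CPM, 2 without a filter on low counts and 6 without a fold minimum. The replicate block gave 5, 7 and 1. Deviations of same-numbered libraries correlated at 0.00 (wild type and *fio1-1*), -0.00 and -0.03, which gave no sign that the numbers pair the samples. A weak pairing could go unseen under counting noise. ZAT12 between the alleles changed sign without *fio1-1* replicate 1, to 0.13 from -0.11, and was -0.36 without *fio1-1* replicate 2. Over all genes, 454 were called higher and 116 lower between the alleles, and 313 and 55 with DESeq2. Without a filter, CBF1 (log2 -2.79) and CBF2 (log2 -2.89) also entered the count of called members in *fio1-1*. These genes had 0 to 6 reads a library, so their fitted changes are a description with no test. Depth limits the CBF factors and GOLS3, at 0 to 18 reads a library.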
